A study of Mus musculus with 82 samples.

Results

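Of the 56941 genes listed in each of the 2 deposited count tables, 38 genes of mitosis were followed through mouse ear skin treated with imiquimod, alone or with an oral compound that blocks CCR6, a chemokine receptor of T cells and dendritic cells. They were taken by gene symbol from a list of cyclins, mitotic kinases, checkpoint, kinetochore, spindle and cytokinesis genes, and all 38 had enough counts to be tested in both experiments. The 82 libraries are bulk mRNA of right ear punches from female C57BL/6J Rj mice and fall into 14 groups. In the time course, sham ears (labelled Vehicle), ears given imiquimod 5% and ears of mice given imiquimod 5% and the inhibitor IDOR-1117-2520 carry the labels day 2, day 5 or day 8, with 6 libraries a group except 4 for sham at day 5. In the start-day experiment, sham and imiquimod groups labelled day 8 stand beside 3 groups whose drug started on day 0, day 3 or day 5, with 6 libraries each. The time label of these 3 drug groups reads day 8, day 5 and day 3 in that order, and whether it is a day of sampling or a length of treatment is not stated. Imiquimod is an agonist of Toll-like receptor 7 that raises a psoriasis-like inflammation in mouse skin. The schedule given is daily application to the ears from day 0 to day 7 (8 applications). It is given alike for the groups labelled day 2 and day 5, so the number of applications those ears had received is not known. The drug was given in the drinking water, per the protocol from at least 1 day before the first application. The labels of the start-day groups replace this by their own start. The labels name no altered allele, and nothing in them says that the libraries of a group come from different animals, so p values here cover only the spread between these samples.

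Mitosis begins when cyclin B bound to CDK1 drives the cell out of G2, and Polo-like and Aurora kinases then build the spindle on which kinetochores hold the chromosomes. The spindle checkpoint keeps the anaphase-promoting complex (APC/C), a ubiquitin ligase, from acting until all chromosomes are attached, after which its activator CDC20 and its ubiquitin carrier UBE2C lead to the loss of cyclin B and securin and the furrow closes. In healthy epidermis these genes are transcribed mainly in dividing basal keratinocytes and hair follicle cells, and psoriatic epidermis is known for a raised rate of division.

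Depth per library lay between 13.1 and 35.4 M counts (time course) and between 24.1 and 35.5 M counts (start-day experiment). Values are CPM, counts scaled to a common library size with TMM factors, and since gene lengths were not used, levels are compared between groups and not between genes. Within groups the 38 genes often placed the same library at an edge. Imiquimod library 12 was the lowest of its day 2 group in 35 of 38 genes, drug library 13 the lowest of its day 2 group in 36, imiquimod library 45 the lowest at day 8 in 35, and drug library 36 the highest at day 5 in 30. In the start-day experiment sham library 2 was the highest of its group in 34 genes and library 22 of the group given drug from day 3 the lowest in 29.

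Imiquimod raised 37 of the 38 genes at every time, and securin (Pttg1) was the exception. Per library, the median over the 38 genes in log2 CPM ran from 3.38 to 3.94 in sham ears of day 2 and from 4.88 to 5.53 in imiquimod ears, from 3.76 to 3.96 against 5.71 to 5.97 at day 5, and from 3.59 to 4.15 against 5.34 to 5.72 at day 8. The start-day ranges were 3.30 to 3.82 for sham and 5.29 to 5.44 for imiquimod. No sham library reached the lowest imiquimod library in any of these 4 comparisons.

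**Figure D1:**
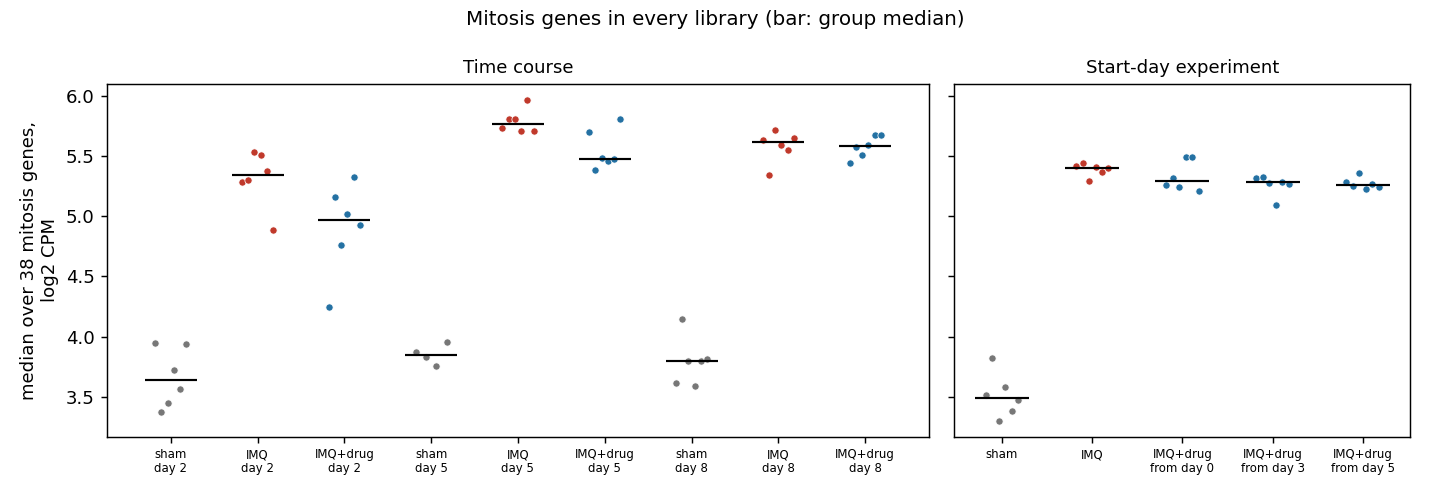
Median over the 38 mitosis genes in log2 CPM (vertical axis) in each library (points) of the 14 groups, with the group median as a bar; sham is grey, imiquimod red and imiquimod with drug blue. Sham libraries lie between 3.30 and 4.15 and every imiquimod library at 4.88 or above, and drug libraries reach down to 4.24 at day 2 and overlap the imiquimod libraries in all 6 comparisons.

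A gene was called when its adjusted p in edgeR's quasi-likelihood test (Benjamini-Hochberg over all genes tested) was under 0.05. At day 2, 37 members were called higher with imiquimod and 0 lower, where 29.2% of all 18780 tested genes were higher and 28.5% lower. The members' median log2 fold change was 1.71, against -0.03 over all genes. At day 5, 37 were higher and 1 lower (34.6% and 35.9% of all genes), with a median of 2.03 against -0.04. At day 8, 37 were higher and 0 lower (34.5% and 33.6%), with a median of 1.92 against -0.01. The start-day experiment gave 37 higher and 1 lower (38.1% and 39.9% of 18434 genes), with a median of 2.06 against -0.02. The 37 genes were also free of any overlap between sham and imiquimod libraries in each of the 4 comparisons, which held for 18.8%, 29.2%, 25.8% and 30.3% of all genes in the same order. Libraries of 3 days and of the other experiment thus gave a rise in each of these 37 genes, and Pttg1 never rose. In bulk tissue, more dividing cells and more RNA of these genes per cell cannot be told apart, nor can fewer cells of a type and less RNA per cell.

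Cyclin-dependent kinase 1 and the mitotic cyclins rose together, 4 of 4 in each comparison, with median log2 fold changes of 1.80, 2.14 and 2.05 at days 2, 5 and 8 and 2.16 in the start-day experiment. Cdk1, the kinase itself, lay at 9.51 to 16.2 CPM (median 12) in sham ears of day 2 and at 35 to 55.3 (median 42.3) in imiquimod ears. At day 5 its 4 sham libraries held 13.1, 13.6, 13.2 and 13.4 CPM, and the imiquimod libraries 52.5 to 67.0 (median 57.1). The lowest imiquimod value was above the highest sham value on both days, and the log2 fold changes were 1.78 ± 0.13 (SE, adjusted p = 2.18e-16) and 2.12 ± 0.15 (adjusted p = 1.43e-17). Ccnb1, which encodes cyclin B1, went from 12.7 to 17.4 CPM in the 4 sham libraries of day 5 (17.4, 14.1, 12.7 and 16.7) to 75.6 to 89.6 (median 83.9) with imiquimod. Its groups were again apart, with a log2 fold change of 2.45 ± 0.18 (adjusted p = 2.04e-16). Ccna2 and Ccnb2, for cyclins A2 and B2, had log2 fold changes of 2.08 and 2.16 at day 5, and Ccna2 had the smallest adjusted p of the members in the start-day experiment (log2 fold change 2.11 ± 0.06, adjusted p = 6.77e-25).

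The mitotic kinases Plk1, Aurka and Nek2, which drive centrosome maturation, spindle assembly and centrosome separation, rose by medians of 1.93, 2.32, 2.20 and 2.61 on the log2 scale in the 4 comparisons. Plk1 had the highest fold change of all members on each day of the time course. It lay at 9.95 to 16 CPM (median 14.5) in sham and 42.4 to 67.3 (median 58.6) in imiquimod ears of day 2. At day 5 the 4 sham libraries held 17.5, 16.3, 14.8 and 15.4 CPM and the imiquimod libraries 89.3 to 112 (median 91.3), and at day 8 the ranges were 10.5 to 19.5 (median 13.4) and 61.4 to 89.0 (median 76.1). Sham and imiquimod ears did not overlap on any day, and the log2 fold changes were 2.08 ± 0.16, 2.56 ± 0.18 and 2.48 ± 0.16 (adjusted p = 3.44e-15, 9.12e-17 and 2.41e-18). Plk1 rose in the other experiment by 2.72 ± 0.08 (adjusted p = 4.52e-23), next to Cdc20, the highest there.

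The chromosomal passenger complex, in which INCENP, survivin (Birc5) and borealin (Cdca8) hold Aurora B at centromeres and later at the midzone, rose in 4 of 4 genes each time. Aurkb, the kinase of the complex, lay at 7.11 to 12.9 CPM (median 8.99) in sham and 20.4 to 34.2 (median 28.4) in imiquimod ears of day 2. At day 8 it lay at 8.05 to 11.6 (median 9.87) and 29.1 to 39.8 (median 34.9). Both pairs of groups were apart, with log2 fold changes of 1.60 ± 0.13 and 1.81 ± 0.13 (adjusted p = 2.00e-14 and 6.55e-17). Its partners ranged at day 5 from 1.72 for Incenp to 2.36 for Cdca8.

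The spindle checkpoint genes were less alike in size. Bub1, a kinase of unattached kinetochores, rose by 2.03, 2.39 and 2.39 on the log2 scale at days 2, 5 and 8, and Bub1b, which encodes the checkpoint protein BubR1, by 1.51, 1.76 and 1.82. Bub1b lay at 14.1 to 20.9 CPM (median 19.8) in sham and 50.9 to 72.9 (median 66.8) in imiquimod ears of day 8, with no overlap (SE of the fold change 0.12, adjusted p = 8.83e-18). Mad2l1, for the checkpoint effector MAD2, rose by 1.25, 1.5 and 1.29. Ttk, for the kinase MPS1 that starts the checkpoint signal, rose by 0.93 ± 0.11, 1.08 ± 0.12 and 0.74 ± 0.11 (adjusted p = 4.61e-10, 6.11e-11 and 4.46e-08).

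The APC/C and anaphase genes held the extremes of the list. Cdc20, the mitotic activator of the APC/C, lay at 16 to 24.4 CPM (median 19.5) in sham and 47.9 to 95.7 (median 77.1) in imiquimod ears of day 2. At day 5 its 4 sham libraries held 26.8, 25.4, 21.8 and 27.1 CPM and the imiquimod libraries 131 to 149 (median 141). Its start-day ranges were 14.6 to 20.4 (median 15.6) and 99.1 to 123 (median 112). No groups overlapped, and the log2 fold changes were 1.94 ± 0.15, 2.48 ± 0.17 and, in the start-day experiment, 2.74 ± 0.08 (adjusted p = 5.68e-15, 5.96e-17 and 1.24e-23). Ube2c, for the ubiquitin carrier of the APC/C, rose by 1.84, 2.25 and 2.11 at days 2, 5 and 8. Espl1, for separase, the protease that cuts cohesin at anaphase, had the smallest rises of the called members, at 0.40 ± 0.08, 0.43 ± 0.09 and 0.47 ± 0.08 (adjusted p = 5.67e-05, 8.51e-05 and 3.31e-06) and 0.76 ± 0.06 in the start-day experiment (adjusted p = 3.50e-13).

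Pttg1, which encodes securin, the inhibitor that holds separase until the APC/C marks it for destruction, did not follow the rest. It lay at 25.1 to 29.2 CPM (median 25.9) in sham and 19.3 to 28.1 (median 24.2) in imiquimod ears of day 2. At day 5 the 4 sham libraries held 25.2, 24.7, 24.9 and 19.7 CPM, and imiquimod libraries 18.3 to 22 (median 19.8). Start-day sham libraries held 22.8 to 25.9 CPM (median 24.7) and imiquimod libraries 17 to 19.3 (median 19). The groups overlapped at days 2 and 5, where 1 sham library of day 5 lay among the imiquimod libraries, and were apart in the start-day experiment. The log2 fold changes were -0.12 ± 0.07 at day 2 (adjusted p = 0.130), -0.24 ± 0.08 at day 5 (adjusted p = 0.00593), -0.14 ± 0.07 at day 8 (adjusted p = 0.0676) and -0.41 ± 0.05 in the start-day experiment (adjusted p = 4.54e-09). Securin and separase, bound to each other in the cell, were thus the lowest 2 fold changes of the list in every one of these comparisons.

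**Figure D2:**
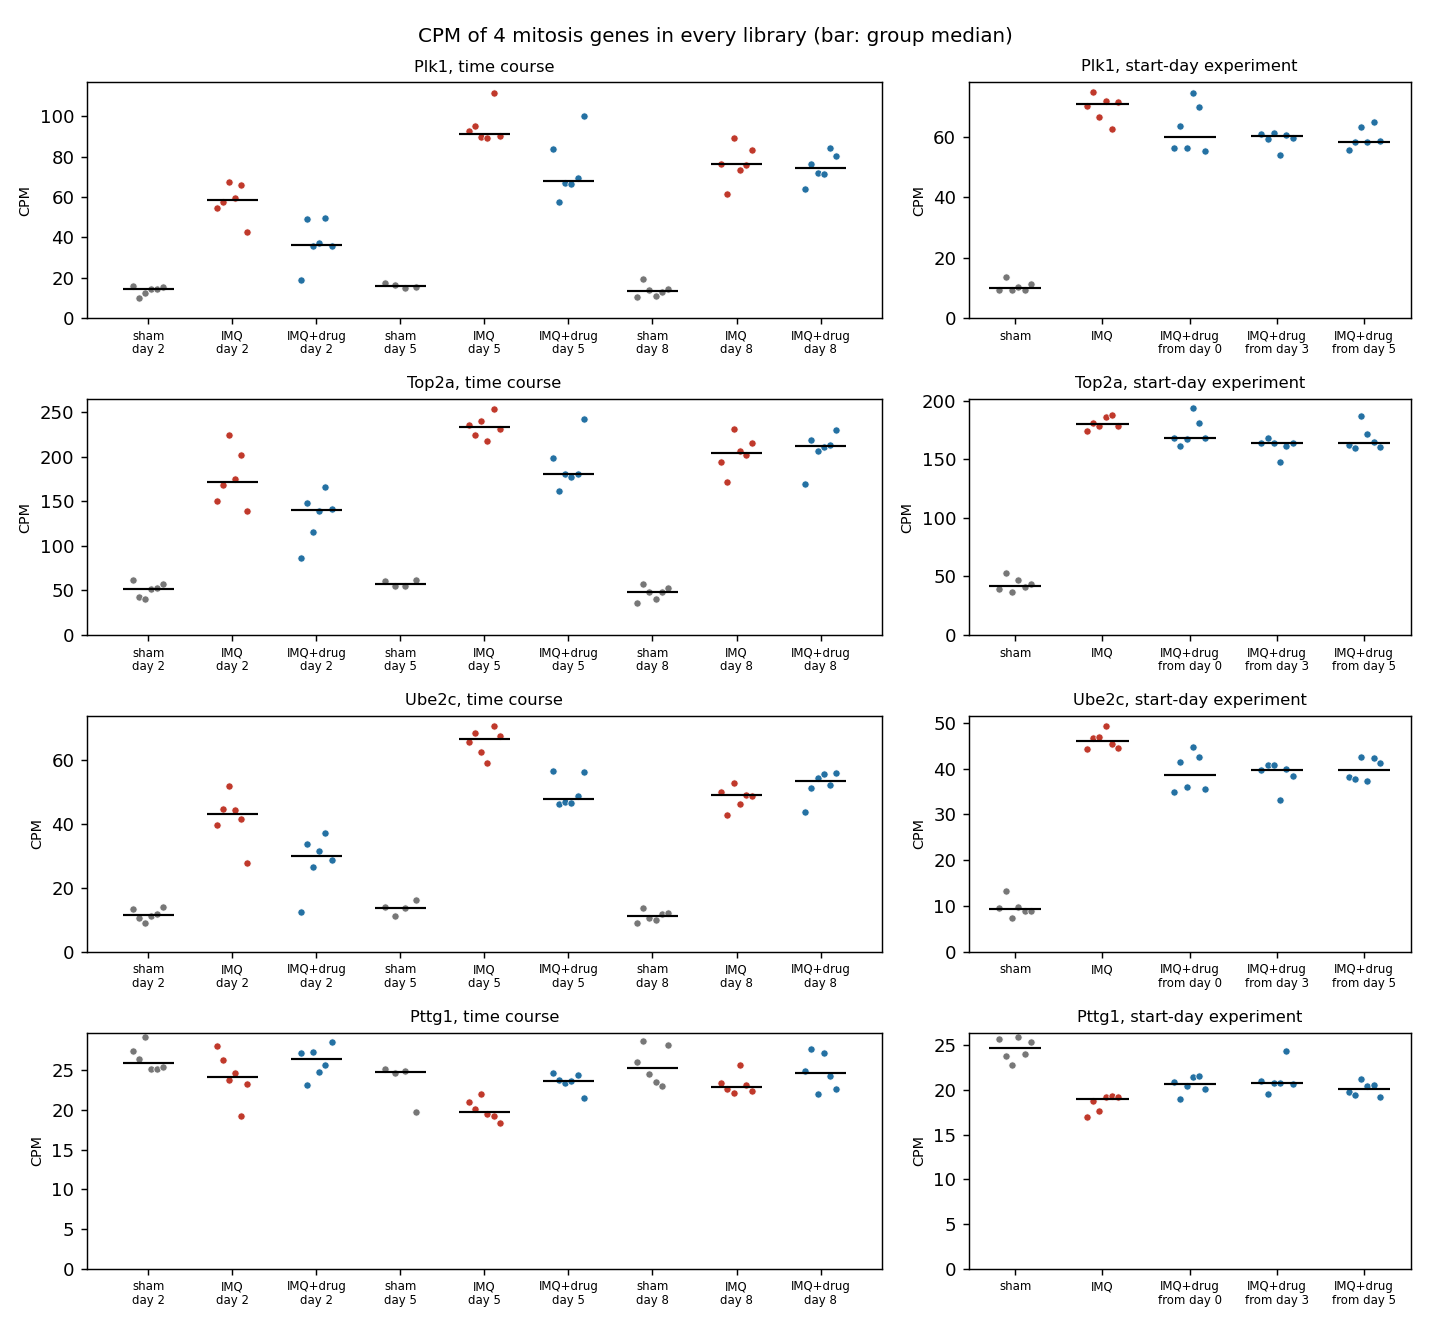
CPM (vertical axes, from 0) of Plk1, Top2a, Ube2c and Pttg1 in each library (points) of the time course (left) and the start-day experiment (right), with group medians as bars. Plk1, Top2a and Ube2c are apart between sham (grey) and imiquimod (red) everywhere, while Pttg1 stays between 17 and 29.2 CPM in all of these sham and imiquimod groups.

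Kinetochore and centromere genes rose in 5 of 5 in each comparison. Cenpe, for a kinesin that carries chromosomes to the spindle equator, had the highest of these fold changes at day 5 (2.48) and Cenpf, for a large protein of the outer kinetochore, the lowest (1.35). Ndc80, for the microtubule-binding subunit of the kinetochore, lay at 4.47 to 7.06 CPM (median 4.64) in sham and 10.7 to 16.6 (median 14.2) in imiquimod ears of day 2. The groups were apart, and the log2 fold change was 1.45 ± 0.15 (adjusted p = 4.53e-12). Nuf2, its partner in the same complex, had 1.58, and Cenpa, for the histone variant of centromeres, 1.45.

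Spindle motors and assembly factors rose in 6 of 6, with medians of 1.84, 2.17, 2.12 and 2.27. Kif11, for the motor that pushes the spindle poles apart, lay at 13.2 to 18 CPM (median 14.9) in sham and 56.5 to 73.8 (median 73.0) in imiquimod ears of day 8. These groups were far apart, and Kif11 had the smallest adjusted p of the members that day (log2 fold change 2.19 ± 0.13, adjusted p = 1.14e-19). Tpx2, for an activator of Aurora A on spindle microtubules, had the smallest adjusted p at day 5 (2.41 ± 0.15, adjusted p = 1.01e-18). The chromokinesin gene Kif4, the microtubule depolymerase genes Kif2c and Kif18b, and Hmmr, for a spindle-associated protein, had log2 fold changes of 1.80, 2.34, 2.04 and 2.26 at day 5.

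Cytokinesis genes rose in 6 of 6 with lower medians, 1.45, 1.72, 1.65 and 1.83. Anln, for the furrow scaffold anillin, lay at 28.2 to 44.9 CPM (median 35.4) in sham and 69.7 to 109.5 (median 88.6) in imiquimod ears of day 2, again without overlap (log2 fold change 1.36 ± 0.13, adjusted p = 1.13e-12). Ect2, for the exchange factor that switches on RhoA at the furrow, had the smallest adjusted p of the members at day 2 (1.93 ± 0.13, adjusted p = 5.18e-17). Kif20a and Kif23, kinesins of the central spindle, had 1.89 and 1.26 at day 2, Prc1, for the bundler of midzone microtubules, 1.33, and Racgap1, which works with Kif23, 1.55.

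Of the chromosome genes, Top2a, for the topoisomerase that untangles sister chromatids, lay at 40.4 to 61.1 CPM (median 51.8) in sham and 139 to 225 (median 172) in imiquimod ears of day 2. At day 8 it lay at 35.9 to 57.4 (median 48) and 171 to 232 (median 204). The groups were apart on both days, with log2 fold changes of 1.80 ± 0.12 and 2.11 ± 0.12 (adjusted p = 1.44e-16 and 1.60e-19). Mki67, for the proliferation antigen Ki-67 that coats mitotic chromosomes, lay at 50.9 to 84.0 CPM (median 63.8) in sham and 193 to 264 (median 239.6) in imiquimod ears of day 8, with no overlap and a log2 fold change of 1.91 ± 0.13 (adjusted p = 1.44e-17).

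Differences of the imiquimod effect among days were called in few members. An F test of whether the imiquimod effect differed among the 3 days called 0 of 38 members, where 33.4% of all genes were called, and 5 members had an unadjusted p under 0.05. DESeq2's likelihood ratio test and limma voom each called 3. The single step from day 2 to day 5, tested alone, called 4 members with a larger effect at day 5 (14.4% of all genes were called higher), which were Tpx2, Cenpa, Cenpe and Birc5, with differences of 0.49 to 0.59 on the log2 scale and adjusted p from 0.0392 to 0.0482. Sham ears were steady, with 0 of 38 members called among days (5.52% of all genes, 1 member with an unadjusted p under 0.05).

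**Figure D3:**
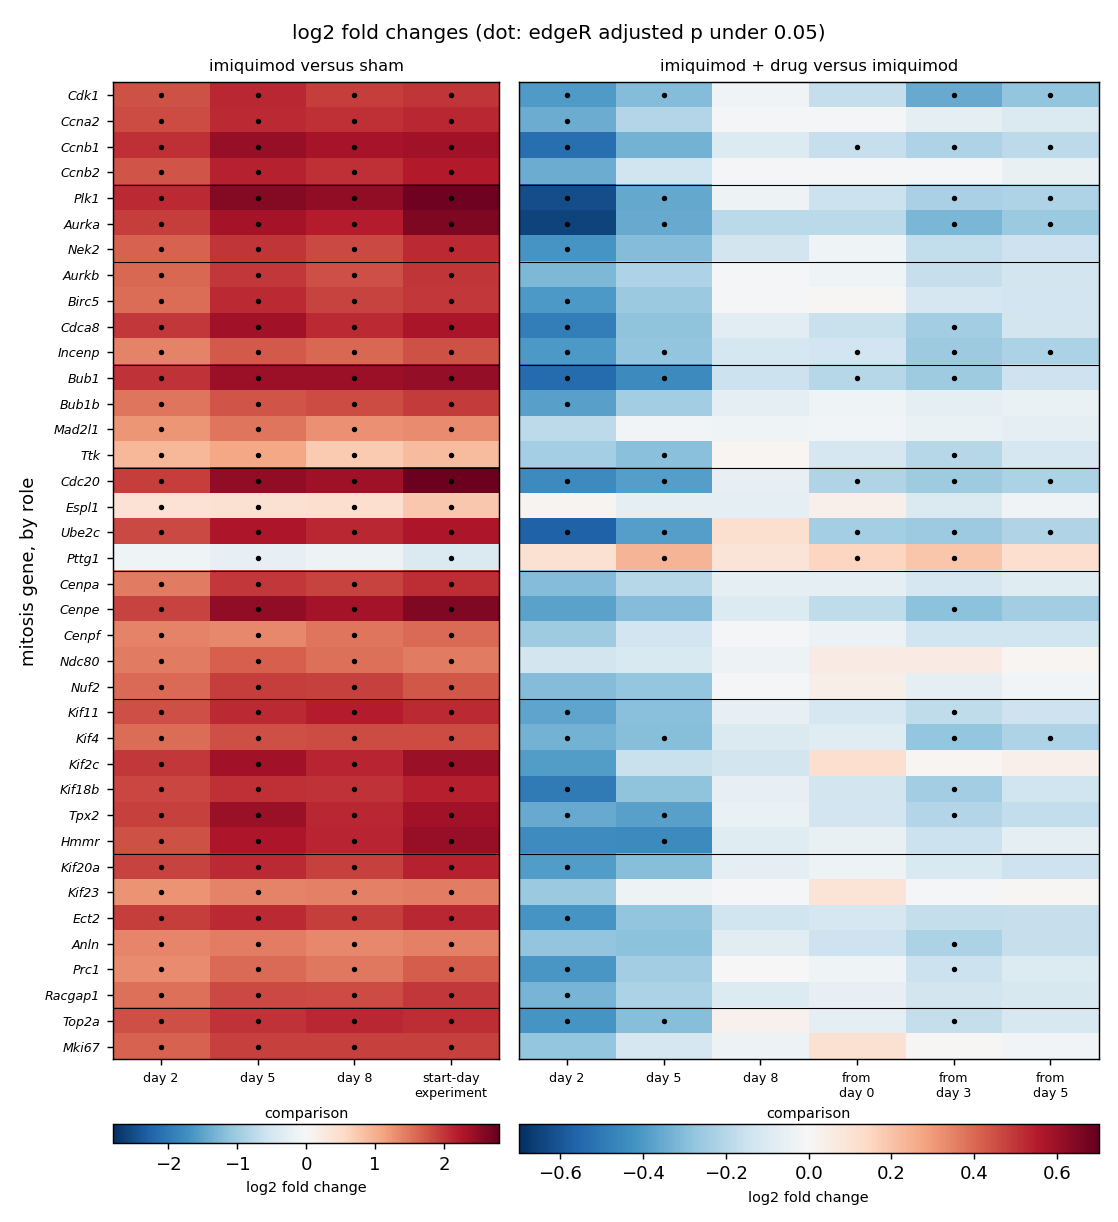
Log2 fold changes (colour, with a scale under each panel) of the 38 mitosis genes, in rows by role, for imiquimod against sham (left, 4 comparisons) and imiquimod with drug against imiquimod (right, 6 comparisons); dots mark an adjusted p under 0.05. The left panel is red in every row but Pttg1, and the right panel has 22 lower calls at day 2, 12 at day 5 and 0 at day 8.

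Many of these genes share letters near their start sites, and 3 promoters are printed here. Of the 38 members, 33 matched an entry in RefSeq's promoter windows (build GRCm38.p6, 250 bases before to 50 after the start), and 2 of them had more than 1 window, which gives 35 windows. The cell cycle homology region (CHR, searched as TTTGAA or TTCGAA on both strands) was found in 28 of 35 windows (80%), against 19.2% of 32851 windows of all genes, and CCAAT (both strands) in 28 of 35 (80%), against 37.4%. Both were present in 25 windows (71.4%) against 7.52%, in 26 windows a CHR lay within 60 bases of the start, and the 2 motifs overlapped in 1 window. Plk1, which had the highest fold change on each day of the time course, and Cdc20, which had it in the start-day experiment, hold both motifs, shown in capitals. Pttg1, the gene that did not rise, holds neither. The windows of Mad2l1, Nuf2 and Birc5 hold neither as well, and these genes rose. Ccnb1, Cenpe and Nek2 hold CCAAT without a CHR, Kif2c, Ndc80 and Anln hold a CHR without CCAAT, and all of these rose. The windows are chr7:122159185-122159484 on the plus strand for Plk1, chr4:118437294-118437593 on the minus strand for Cdc20 and chr11:43425932-43426231 on the minus strand for Pttg1.
Plk1: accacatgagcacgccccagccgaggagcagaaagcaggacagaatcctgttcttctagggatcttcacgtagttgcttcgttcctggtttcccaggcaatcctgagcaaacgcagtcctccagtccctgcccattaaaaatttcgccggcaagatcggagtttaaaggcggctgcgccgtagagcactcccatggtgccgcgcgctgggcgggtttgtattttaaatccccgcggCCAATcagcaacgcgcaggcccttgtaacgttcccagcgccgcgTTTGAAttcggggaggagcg
Cdc20: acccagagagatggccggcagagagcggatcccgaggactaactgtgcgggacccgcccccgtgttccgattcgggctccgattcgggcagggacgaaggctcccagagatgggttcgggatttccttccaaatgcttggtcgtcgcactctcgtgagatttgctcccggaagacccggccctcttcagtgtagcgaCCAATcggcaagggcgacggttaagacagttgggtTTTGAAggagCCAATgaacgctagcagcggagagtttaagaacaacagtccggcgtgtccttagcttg
Pttg1: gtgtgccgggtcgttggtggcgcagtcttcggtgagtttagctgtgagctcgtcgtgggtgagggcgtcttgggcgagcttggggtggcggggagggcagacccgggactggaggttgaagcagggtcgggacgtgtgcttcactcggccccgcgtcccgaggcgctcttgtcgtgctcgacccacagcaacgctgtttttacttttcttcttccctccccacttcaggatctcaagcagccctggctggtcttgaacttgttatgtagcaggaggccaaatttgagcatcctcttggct
A match of letters is a description of the window, and binding of any factor was not measured here. A link between these letters and the rise was not tested.

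Part of the list was called lower with the drug at days 2 and 5 and none of it at day 8. The counts at days 2 and 5 changed with the libraries and settings used, as given below. At day 2, 22 members were called lower in imiquimod ears with the drug than in imiquimod ears and 0 higher, where 9.61% of all genes were lower and 6.9% higher, and the members' median log2 fold change was -0.38 against 0.01 over all genes. No member was free of overlap between the groups (0.777% of all genes were separate and lower). At day 5, 12 members were lower and 1, Pttg1, was higher (17.2% and 18.3% of all genes), with a median of -0.28 against 0.02, and 3 were separate and lower (5.47% of all genes), namely Bub1, Ect2 and Ube2c. At day 8, 0 members were called in either direction and 0 had an unadjusted p under 0.05 (0.335% of all genes were lower and 1.22% higher by edgeR, and 0.628% separate and lower), and DESeq2 also called 0. The day 8 median was -0.06, and the 95% intervals of the members reached from -0.46 for Aurka to 0.38 for Ube2c. At day 8 Plk1 lay at 64.1 to 84.4 CPM (median 74.1) with the drug and 61.4 to 89.0 (median 76.1) without it, and Top2a at 169 to 230.3 (median 212) and 171 to 232 (median 204). The drug libraries lay within or across the imiquimod range for both genes.

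**Figure D4:**
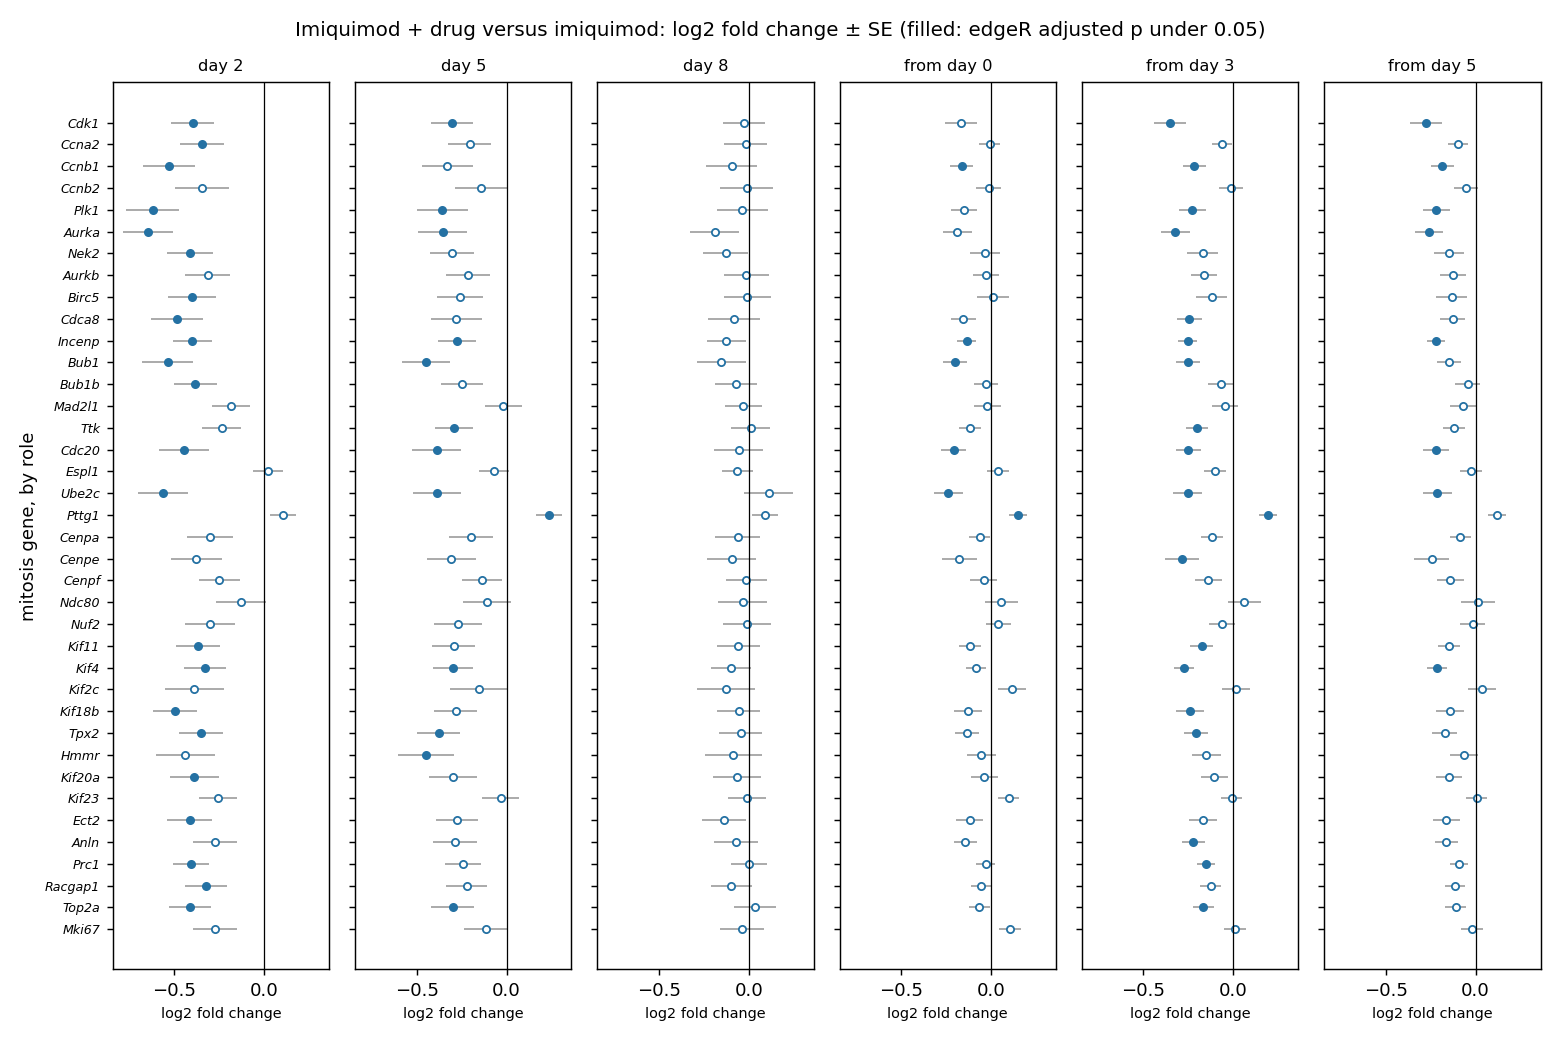
Log2 fold change with its standard error (horizontal axis) of each of the 38 mitosis genes for imiquimod with drug against imiquimod, at 3 days and for 3 start days; filled points have an adjusted p under 0.05. Members sit to the left of 0 at day 2 (median -0.38) and day 5 (median -0.28) and around 0 at day 8 (median -0.06), with Pttg1 to the right in all 6 panels.

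Aurka and Plk1, for Aurora A and the Polo-like kinase, had the lowest values at day 2. Aurka had the largest fall and the smallest adjusted p (-0.65 ± 0.14, adjusted p = 0.00194). Plk1 lay at 19 to 49.3 CPM (median 36.4) with the drug against 42.4 to 67.3 (median 58.6) without it, a log2 fold change of -0.62 ± 0.15 (adjusted p = 0.00387). Of the 6 drug libraries 4 lay below the lowest imiquimod library and 2 above it. All 3 mitotic kinases were called, with Nek2 at -0.41, and so were 3 of 4 of the cyclin group, Cdk1 (-0.40 ± 0.12, adjusted p = 0.0172), Ccnb1 (-0.53 ± 0.15, adjusted p = 0.00989) and Ccna2 (-0.34). Ccnb1 lay at 18.7 to 49 CPM (median 35.6) with the drug against 33.8 to 65.4 (median 52.7).

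Among the later steps, 3 of 4 passenger complex genes were lower at day 2 (Birc5 -0.40, Cdca8 -0.48, Incenp -0.40), while Aurkb had -0.31 ± 0.13 (adjusted p = 0.0777). In the checkpoint Bub1 (-0.54) and Bub1b (-0.38) were lower. Of the APC/C genes, Cdc20 lay at 33.4 to 80.0 CPM (median 53.6) against 47.9 to 95.7 (median 77.1), a log2 fold change of -0.45 ± 0.14 (adjusted p = 0.0240), and Ube2c at 12.4 to 37.1 (median 30.1) against 27.9 to 52.1 (median 43.1), a fold change of -0.56 ± 0.14 (adjusted p = 0.00451). Both overlapped between groups. Spindle motors gave 4 of 6 (Kif11, Kif4, Kif18b and Tpx2), cytokinesis 4 of 6 (Kif20a, Ect2, Prc1 and Racgap1) and the chromosome genes 1 of 2 (Top2a, -0.41 ± 0.12, adjusted p = 0.0131). None of the 5 kinetochore genes was called, with Ndc80 at -0.13 ± 0.14 (adjusted p = 0.562), and the interval of Ndc80 reached from -0.41 to 0.15. Mki67 had -0.27 ± 0.12 (adjusted p = 0.125).

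The count at day 2 rests on few libraries. Without imiquimod libraries 9 and 11 together, a choice made after seeing the data, 0 of 38 were called with a median of -0.23, and a fit of only the 2 groups compared called 0 members and 0 of all genes. Left out singly, imiquimod libraries 9 and 11 and drug libraries 13 and 15 took the count to 6, 10, 8 and 10, and imiquimod library 12 to 33. Without imiquimod library 12 and drug library 13 together, the lowest of their groups, 19 were called.

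At day 5 the lower members were Cdk1, Plk1, Aurka, Bub1, Ttk, Cdc20, Kif4, Top2a, Tpx2, Incenp, Hmmr and Ube2c. Ube2c lay at 46.2 to 56.8 CPM (median 47.9) with the drug against 59.3 to 70.8 (median 66.8), with the groups apart and a log2 fold change of -0.39 ± 0.13 (adjusted p = 0.0195). Bub1 and Hmmr had the lowest values, -0.45 ± 0.13 and -0.45 ± 0.16 (adjusted p = 0.00759 and 0.0216). Plk1 lay at 57.6 to 100.03 CPM (median 68.1) against 89.3 to 112 (median 91.3), where drug library 36 alone reached the imiquimod range (-0.36 ± 0.14, adjusted p = 0.0460). Pttg1, at 21.5 to 24.7 CPM (median 23.7) against 18.3 to 22 (median 19.8), was higher by 0.24 ± 0.07 and had the smallest adjusted p of the members (0.00734). Without drug library 36 the count at day 5 was 25, and without imiquimod libraries 25, 29 or 30 it was 8, 6 and 6, while without drug libraries 32, 33, 34 or 35 it was 4, 7, 4 and 6. Limma voom called 30 and edgeR with no filter on low counts 3, so the count at day 5 moved with the setting, while the median stayed between -0.34 and -0.24 under all settings.

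Of the 38 members, only Ube2c had a drug effect that differed among the 3 days by the F test (adjusted p = 0.0426, where 7.99% of all genes were called and 5 members had an unadjusted p under 0.05). Its log2 fold changes were -0.56, -0.39 and 0.11 at days 2, 5 and 8, and its CPM at day 8 lay at 43.9 to 56 (median 53.4) with the drug against 42.9 to 52.9 (median 49). That call was lost with no filter on low counts and in a fit of only the groups compared, where 0 members were called, and the count moved to 0 or 2 in 21 of 36 fits with a single library left out. For the other members a difference between days 2 and 8 is therefore not shown by this test. The drug's log2 fold change was higher at day 8 than at day 2 in 36 of 38 members (51.6% of all genes). The median difference was 0.30, against 0.01 over all genes. Members often placed the same library at an edge of its group, so these 36 are not independent of each other.

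In the start-day experiment the 3 drug groups share their 6 imiquimod libraries, so their values are set side by side. With drug from day 0, 5 members were lower and 1 higher (16.9% and 18.2% of all genes), with a median of -0.06 and 1 member, Aurka, separate and lower (7.87%). With drug from day 3, 18 were lower and 1 higher (16.4% and 18%), with a median of -0.16 and 15 separate and lower (7.65%). With drug from day 5, 8 were lower and 0 higher (12.7% and 15%), with a median of -0.13 and 8 separate and lower (5.01%). The count called lower was near the share of all genes with drug from day 0 (5 of 38), and above it from day 3 (18 of 38) and from day 5 (8 of 38), by less in the latter. An F test among the 3 drug groups called 0 members (0.00542% of all genes, and 1 member with an unadjusted p under 0.05), so a difference between start days was not shown.

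The genes called lower with each start day were Ccnb1, Cdc20, Incenp and Ube2c. Ccnb1 lay at 63.4 to 67.9 CPM (median 66.2) with imiquimod, and at 54.4 to 67.0 (median 56.2), 51.1 to 61.2 (median 57.0) and 55.3 to 62.9 (median 57.5) with drug from days 0, 3 and 5. Groups from days 3 and 5 were apart from imiquimod and the group from day 0 was not, and the log2 fold changes were -0.16 ± 0.06, -0.22 ± 0.06 and -0.18 ± 0.06 (adjusted p = 0.0478, 0.00877 and 0.0301). Cdc20 lay at 99.1 to 123 CPM (median 112) with imiquimod, and at 82.5 to 113 (median 93.1), 82.5 to 97.9 (median 93.7) and 86.6 to 97.9 (median 95.7), with fold changes of -0.21, -0.25 and -0.22. Ube2c had -0.24, -0.25 and -0.21, and Incenp -0.13, -0.25 and -0.22. Each of these falls was small beside the rise of the same gene with imiquimod, which was 2.36 for Ccnb1, 2.74 for Cdc20, 2.26 for Ube2c and 1.79 for Incenp on the same log2 scale.

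The other members called with drug from day 0 were Bub1 (-0.20 ± 0.07, adjusted p = 0.0171, the smallest there) and, upward, Pttg1 (0.15 ± 0.05, adjusted p = 0.0178). From day 3 the smallest adjusted p was that of Kif4 (-0.27 ± 0.06, adjusted p = 0.000271) and the lowest fold change that of Cdk1 (-0.35 ± 0.09, adjusted p = 0.00264), with Cdk1 at 29.6 to 37.9 CPM (median 35.2) against 36.4 to 49.5 (median 46). From day 5 Incenp had the smallest adjusted p (-0.22 ± 0.05, adjusted p = 0.00176), and Cdk1 again the lowest fold change (-0.28 ± 0.09, adjusted p = 0.0190). Pttg1 was higher from day 3 (0.19 ± 0.05, adjusted p = 0.00258), at 19.5 to 24.3 CPM against 17 to 19.3 with the groups apart, and had 0.12 ± 0.05 from day 5 (adjusted p = 0.0766). Mki67 was near 0 with each start day (0.11, 0.01 and -0.02), as was Ndc80 (0.06, 0.06 and 0.01), and Mki67 from day 3 and Ndc80 from day 5 changed sign under other scaling. Leaving out 1 library took the count from day 0 to between 1 and 10, with imiquimod libraries 7 and 8 and drug libraries 25, 27, 28 and 30 moving it most (3, 3, 2, 2, 10 and 1), and from day 5 to between 5 and 10, with imiquimod library 10 and drug library 13 giving 5 each, while from day 3 it stayed between 15 and 19.

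Drug-treated ears still had higher levels than sham in 37 of the 38 genes. Against sham, which is shared with the comparisons of imiquimod above, the 37 members were called higher at days 2, 5 and 8 (24.2%, 31.1% and 34.2% of all genes), with medians of 1.3, 1.78 and 1.87. Free of overlap with sham were 33 members at day 2 and 37 at days 5 and 8 (13.9%, 23.5% and 23.7% of all genes). The members that overlapped at day 2 were Ttk, Hmmr, Espl1, Ube2c and Pttg1, with Ube2c at 12.4 CPM in drug library 13 and up to 14 in sham. From start days 0, 3 and 5 the number called higher was again 37 (36.7%, 36.6% and 37.4%), with medians of 2.00, 1.92 and 1.94. Beside them stand the medians without the drug, 1.71, 2.03 and 1.92 by day and 2.06 in the start-day experiment. Pttg1 lay below sham with drug from days 0, 3 and 5 (-0.26, -0.22 and -0.29) and close to it in the time course (-0.02, -0.0041 and -0.05).

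Genes around the mitotic programme moved unevenly. Of 13 genes for transcription factors of this programme and their complex partners, 10, 10 and 10 were higher and 2, 3 and 3 lower with imiquimod at days 2, 5 and 8. The start-day experiment gave 9 higher and 3 lower. Beside this list and those below, 29.2%, 34.6%, 34.5% and 38.1% of all genes were higher in these 4 comparisons. In the same order 28.5%, 35.9%, 33.6% and 39.9% were lower. Mybl2 and Foxm1, activators of mitotic genes through the CHR, rose by 1.81 and 1.27 at day 2 and 2.66 and 1.54 at day 5, and E2f7 and E2f8, repressors of the family, by 3.54 and 2.35 at day 5, while Rbl2, for the pocket protein p130 of resting cells, fell by 0.69 at day 5. With the drug, 3, 6 and 0 of the 13 were lower at days 2, 5 and 8, and 1, 0 and 0 higher. Beside this list and those below, 9.61%, 17.2% and 0.335% of all genes were lower with the drug and 6.9%, 18.3% and 1.22% higher. Calls in these lists were not followed under other settings or with libraries left out. At day 2 the fit of only the 2 groups compared, given above, called 0 of all genes. At day 5 E2f7 fell by 0.92, E2f8 by 0.67 and Mybl2 by 0.54, while Foxm1 had -0.06 and was not called, and the gene higher at day 2 was Rbl2 (0.21). From start days 0, 3 and 5, 5, 5 and 4 were lower and 1, 0 and 0 higher. For all genes the shares were 16.9%, 16.4% and 12.7% lower and 18.2%, 18% and 15% higher. All 16 S phase genes rose in each imiquimod comparison (medians 1.25, 1.39, 1.27 and 1.36), and 7, 8 and 0 of them were lower and 0 higher with the drug at days 2, 5 and 8. Of 27 further kinetochore and centromere genes 25, 26 and 25 rose and 0, 0 and 1 fell at days 2, 5 and 8, and 6, 3 and 0 were lower with the drug. Of 7 other kinesins, mitotic ones and the transport motor Kif3a, 6, 6 and 7 rose and 0 fell, and 2, 2 and 0 were lower with the drug. Of 15 condensin and cohesin genes 14, 13 and 13 rose and 0, 1 and 0 fell, and with the drug 7, 7 and 0 were lower and 0, 1 and 0 higher. Of 8 G1 cyclins and kinases 7, 6 and 5 rose and 1 fell on each day, and with the drug 5, 4 and 0 were lower and 1, 1 and 0 higher. Ccne1, for cyclin E1, rose by 2.19, 2.97 and 2.82, while Ccnd2, for cyclin D2, fell by 0.47, 1.88 and 1.91.

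The list for the APC/C core holds 15 genes, among them Fzr1, which encodes an activator and not a core subunit. As a list these 15 did not share the rise of Cdc20 and Ube2c. Their medians were 0.07, 0.11 and 0.07 at days 2, 5 and 8, with 6, 7 and 7 called higher and 2, 2 and 3 lower. In the start-day experiment 6 were higher and 8 lower, with a median of -0.17. Beside these stand the shares of all genes given above, 29.2%, 34.6%, 34.5% and 38.1% higher and 28.5%, 35.9%, 33.6% and 39.9% lower. Of 10 switches that set CDK1 activity, 9 rose at each day and 0, 1 and 0 fell. At day 5 Mastl, for the kinase Greatwall, rose by 1.92 and Cdc25c, for a phosphatase that activates CDK1, by 1.84, and the gene that fell was Wee1, for the kinase that holds CDK1 inactive, which fell by 0.59. With the drug 5, 4 and 0 of the 10 were lower and 0, 1 and 0 higher (9.61%, 17.2% and 0.335% of all genes were lower). Of the 6 CDK inhibitors tested, 3, 4 and 4 fell and 1, 1 and 0 rose with imiquimod, with Cdkn1b (p27) falling by 0.71, 0.81 and 0.77 and Cdkn1c (p57) by 0.93, 1.69 and 1.69. With the drug 1, 3 and 0 were higher and 0 lower at days 2, 5 and 8 (6.9%, 18.3% and 1.22% of all genes were higher). From each start day 3 were higher and 0 lower (18.2%, 18% and 15% of all genes were higher from days 0, 3 and 5). At day 5 Cdkn1b was higher by 0.20, Cdkn2b by 0.37 and Cdkn2c by 0.28.

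Markers of the cells in an ear punch are given here beside the shares of all genes called. With imiquimod 29.2%, 34.6% and 34.5% of all genes were higher and 28.5%, 35.9% and 33.6% lower at days 2, 5 and 8. With the drug 6.9%, 18.3% and 1.22% were higher and 9.61%, 17.2% and 0.335% lower. The 5 basal keratinocyte markers were Krt5, Krt14, Col17a1, Itga6 and Trp63. Of these, 4, 3 and 4 were higher and 1, 2 and 1 lower with imiquimod at days 2, 5 and 8. Krt14 led the rises, at 1.12, 1.86 and 1.58, while the medians over the 5 were 0.45, 0.66 and 0.72. The summed level of the 5 ran from 13985 to 15481 CPM in sham to 27141 to 31028 in imiquimod and 23099 to 29048 in drug ears of day 5. With the drug 1, 1 and 1 of the 5 were higher and 0, 2 and 0 lower at days 2, 5 and 8. The 5 neutrophil markers were S100a8, S100a9, Csf3r, Cxcr2 and Ly6g. Their sum cannot tell neutrophils from other cells that hold these RNAs, and it was not split by gene. This sum was 147 to 2182 CPM in imiquimod and 36.7 to 196 in drug ears of day 2. It was 4976 to 7387 and 337 to 4529 at day 5 and 4367 to 5797 and 1766 to 5081 at day 8. With the drug 4, 5 and 0 of the 5 were called lower at days 2, 5 and 8. The 5 macrophage markers summed to 201 to 238 and 181 to 229 CPM at day 2 and to 367 to 645 and 241 to 488 at day 5, with 0 and 5 of 5 lower with the drug. Among the other lists, 3, 2 and 3 of 3 suprabasal keratinocyte markers were higher with imiquimod at days 2, 5 and 8 and 0, 1 and 0 lower, Krt10 falling by 0.39 at day 5. Of 6 T cell markers 3, 3 and 2 were lower and 1, 1 and 2 higher. Of 4 endothelial markers 2, 0 and 0 were lower and 0, 2 and 1 higher, and of 4 fibroblast markers 3, 2 and 2 were lower and 0, 1 and 1 higher. Of 3 sebaceous gland markers 2, 2 and 3 were lower and 1, 0 and 0 higher, and of the 2 hair matrix markers tested 1, 2 and 2 were lower and 0 higher. With the drug, endothelial markers were lower in 0, 4 and 2 of 4 and fibroblast markers in 1, 4 and 0 of 4 at days 2, 5 and 8, and 0 of either list were higher. Suprabasal markers were higher in 0, 2 and 0 of 3, sebaceous gland markers in 0, 3 and 1 of 3 and hair matrix markers in 2, 2 and 1 of 2, and 0 of these were lower. The T cell markers gave 0 calls at days 2 and 8, and at day 5 Cd3g and Cd3e were higher and Trbc2 lower. No marker of the basal keratinocyte, neutrophil and macrophage lists was at 0 in an imiquimod or drug group, and 1 neutrophil marker was at 0 in sham groups of the time course. The part of these markers in the mitosis results was not tested, and their calls were not followed under other settings or with libraries left out.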

How the data were processed

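Bulk mRNA libraries from 82 right ear punches (14 groups) were analysed. The values are the authors' estimated counts by gene. The deposited tables are named for salmon, and the submitters' processing notes give GRCm39 as the build. Version, annotation, strand setting and filters are not stated in these sources, so overlapping genes on opposite strands could share reads. Column names match sample titles, 0 columns had no sample, and no pair of libraries of a group was as close as a copy (lowest chi-square per gene 3.93).

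Counts were rounded and the 2 experiments fitted apart in edgeR 4.0.16 (R 4.3.3), with filterByExpr on group, TMM scaling and the robust quasi-likelihood F test, all groups in 1 fit. Adjustment was by Benjamini-Hochberg over all genes tested, and an adjusted p under 0.05 was called. Intervals are 95% t intervals of the fit, and log2 CPM used a prior count of 2. Depth was 13.1 to 35.5 M counts, so 3 counts are 0.0844 to 0.229 CPM, and every member lies above that. Libraries do not overlap where all of 1 group lie on 1 side of the other.

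The members and all lists were chosen with earlier results of these data known. All members are accounted for by role. For 11 members, 1 or 2 a role, values by sample are given. The comparisons of imiquimod with sham name the extremes, the smallest adjusted p and the uncalled members where they are 10 or fewer. Those with the drug name them in part. Other members, Ube2c and Pttg1 in full, and genes of the other lists were named after their values were seen. Alternatives were RLE scaling, no filter or a minimum of 1 CPM, limma 3.58.1 voom with sample weights, DESeq2 1.42.0, a fit of only the compared groups and each library left out. The fit was first tested on simulated counts. Promoter letters come from RefSeq's GRCm38.p6 windows and are used with no coordinates of the deposited tables. Figures used matplotlib 3.10.9.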

Additional observations from a re-analysis of the deposited data

Results flagged for a closer look

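Of 168 groups of values examined (the 11 genes described by sample and the median over the 38 genes, each in the 14 groups), 7 held a library whose gap to the nearest other library took up an unusually large part of the group's range by Dixon's 95% criterion. Chance flags about 1 in 20 groups. In the group given drug from day 3, library 22 stood low in the median over the 38 genes (5.09 log2 CPM), in Plk1 (54.1 CPM) and in Top2a (147 CPM). Imiquimod library 29 of day 5 stood high in Plk1 (112 CPM) and Mki67 (278 CPM). Drug library 51 of day 8 stood low in Bub1b (53.5 CPM), and sham library 2 of the start-day experiment stood high in Ccnb1 (16.9 CPM). The drug effect on Ube2c differed among days 2, 5 and 8 (edgeR F test, adjusted p = 0.0426), with log2 fold changes of -0.56, -0.39 and 0.11.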

How the results depend on the processing

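No paired analysis was possible because the groups compared share no replicate numbers in the labels. Counts of members called against sham stayed at 37 or 38 in all 10 comparisons under every setting and every library left out (lowest 37, highest 38), and the count at day 8 with the drug stayed at 0 (leave-one-out 0 to 0). The counts with the drug at days 2 and 5 did not hold. At day 2 (22 in the report) no filter gave 12, limma voom 11, only the groups compared 0 and, added after seeing the data, leaving out imiquimod libraries 9 and 11 together 0, and leaving out single libraries gave 6 to 33. At day 5 (13) RLE scaling gave 20, no filter 3, limma voom 30, DESeq2 22 and only the groups compared 26, and single libraries 4 to 25. From day 0 (6) no filter gave 2 and single libraries 1 to 10. From day 3 (19) the other settings gave 16 to 27 and single libraries 15 to 19. From day 5 (8) no filter gave 3, DESeq2 13 and only the groups compared 20, and single libraries 5 to 10. For the imiquimod effect among days (0) limma voom, DESeq2 and only the groups compared gave 3 each, and single libraries 0 to 2. For the drug effect among days (1) no filter and only the groups compared gave 0, and single libraries 0 to 2. The other F tests stayed at 0. Fits of only the groups compared use fewer samples, and the cause of the other moves was not tested.

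Signs under other settings were followed only for the genes described by sample and for members named by rule, such as the extremes of a comparison. Among the values followed, signs changed only in uncalled values near 0. Sign changes in the other members were not examined. Pttg1 at day 5, drug against sham, was 0.0442 in limma voom and -0.080 to 0.0287 over single libraries left out. Mki67 with drug from day 3 was -0.00127 under RLE scaling and -0.00125 in DESeq2, and -0.0102 to 0.0306 over single libraries. Ndc80 with drug from day 5 was -0.000794 under RLE scaling and -0.000978 in DESeq2, and -0.0310 to 0.0615 over single libraries. Over single libraries only, Cdk1 at day 8, drug against imiquimod, ran from -0.0663 to 0.0128, Plk1 from -0.0908 to 0.0122, Aurkb from -0.0577 to 0.0307, Ndc80 from -0.0935 to 0.0440, Cdc20 from -0.111 to 0.000735 and Top2a from -0.0122 to 0.0896, and Pttg1 at day 2, drug against sham, from -0.0466 to 0.0154. Depth limits none of the members.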
